A study of Arabidopsis thaliana with 32 samples.

Results

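The transcriptome of Arabidopsis thaliana seedlings was compared across dawn in long days, with the 4 morning libraries set against the 4 late-night libraries of the same time course. The libraries were chosen by hour alone: the morning ones were taken 2, 5, 26 and 29 h after the first lights-on, and the late-night ones 20, 23, 44 and 47 h after it. Hours are written as Zeitgeber time, so that ZT2 is 2 h into the light, ZT23 is 1 h before lights-on, and ZT26 and ZT47 belong to the second cycle. These are 8 of the 32 libraries of the series and 8 of its 16 long-day libraries. All were of Col-0 whole seedlings, raised for 8 days on MS plates at 24 °C with 16 h of light and 8 h of darkness a day, and held for a further 2 days in the same long days. A further 8 libraries, taken at the same hours from seedlings moved to continuous light for those 2 days, serve here as the setting without a dark night; their morning and late night are subjective. Each time point had 1 library, and the labels do not say that libraries came from separate cultures. Each p-value therefore speaks only of the spread among these libraries, which may be technical. In the comparison of morning with late night, that spread also holds the change between the hours pooled in each group.

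Dawn is the hour at which the plant clock and light act together on the same genes. In the clock of Arabidopsis, the MYB-like repressors CCA1 and LHY peak around dawn and hold down evening genes through a promoter sequence called the evening element. The pseudo-response regulators PRR9, PRR7, PRR5 and TOC1 then follow one another through the day and hold down CCA1 and LHY, and at night the evening complex of ELF3, ELF4 and LUX holds down daytime genes such as PRR9, PIF4 and GI. Light received by phytochromes, cryptochromes and phototropins induces antenna proteins, photoprotection and pigment synthesis, while leaves live through the night on starch and switch on sugar-starvation genes when carbon runs short.

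Expression is given as FPKM (fragments per transcript, set relative to transcript length and library total), summed over the transcripts of a locus. Differences are morning minus late night on the log2(FPKM + 1) scale after each library was centred on its median, with the standard error of the limma fit; folds on this scale understate changes of weakly expressed genes. Library totals were 569534 to 582690 FPKM in the morning and 569782 to 572443 FPKM in the late night (how many reads lie behind them is unknown). Median log2 values of the tested loci were lower in all 4 morning libraries (3.49 to 3.55) than in all 4 late-night libraries (3.64 to 3.68), and without centring the median locus stood at -0.13. Summed FPKM of 12 reference genes was 1956 to 2173 in the morning and 2201 to 2256 in the late night, and that of 16 root markers was 331 to 416 in the morning and 453 to 497 in the late night, with no marker of the list at 0 in all libraries. Among the 14 root markers tested, 1 was lower, beside 7.47% of all loci, and none was higher. It was the iron transporter gene IRT1 (-1.62 ± 0.349), whose call was lost without the library at ZT2, ZT20, ZT23 or ZT47 (adjusted p up to 0.0573). The part of these shifts in the results below was not tested. In RNA of whole seedlings, fewer cells of a type and less RNA per cell cannot be told apart.

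Of 18778 loci tested, 2705 (14.4%) differed between morning and late night at an adjusted p under 0.05 (limma, Benjamini-Hochberg). Higher in the morning were 1303 (6.94%) and lower were 1402 (7.47%). The 2 directions differed in size: 426 loci were higher by at least 1 on the log2 scale and 83 by at least 2, whereas 153 were lower by at least 1 and 27 by at least 2. Groups did not overlap in 2667 of the called loci, and in 4272 of all loci (22.8%). Genes named below for the size of their difference were taken only from called loci whose groups did not overlap. For these genes, the lack of overlap follows from the choice and adds no support. The share of higher calls was 48.2% and depended on scaling, since it was 21.8% on FPKM as deposited and 44% after quantile normalization; all 2705 loci kept their direction on FPKM as deposited. The count was 1717 without the ZT20 library. Of 150 named results of this comparison, 116 kept their call without each single library, and 34 lost it without at least 1.

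Over the whole day the higher set declined from its morning level while the light was still on. Relative to the late-night mean, its median stood at 0.78 at ZT2, 0.71 at ZT5, 0.48 at ZT8, 0.27 at ZT11, 0.17 at ZT14 and 0.18 at ZT17 (log2 scale, mean of both cycles), the last lit hour sampled being ZT14. Of the 1303 loci, 55.4% were at their highest at ZT2 and 31.2% at ZT5, beside 18.0% and 11.1% of all loci; these hours had chosen the loci, so the peak is a description. The lower set stood at -0.54 at ZT2, -0.49 at ZT5, -0.37 at ZT8, -0.29 at ZT11, -0.24 at ZT14 and -0.18 at ZT17, and so came back towards the night level over the lit hours. Of these 1402 loci, 50.4% were at their lowest at ZT2, beside 21.6% of all loci, with the same limit. Genes of the lower set were longer, with a median of 6 exons and a span of 2721 nt, against 4 exons and 2215 nt in the higher set and 5 exons and 2373 nt over all loci tested.

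**Figure D1:**
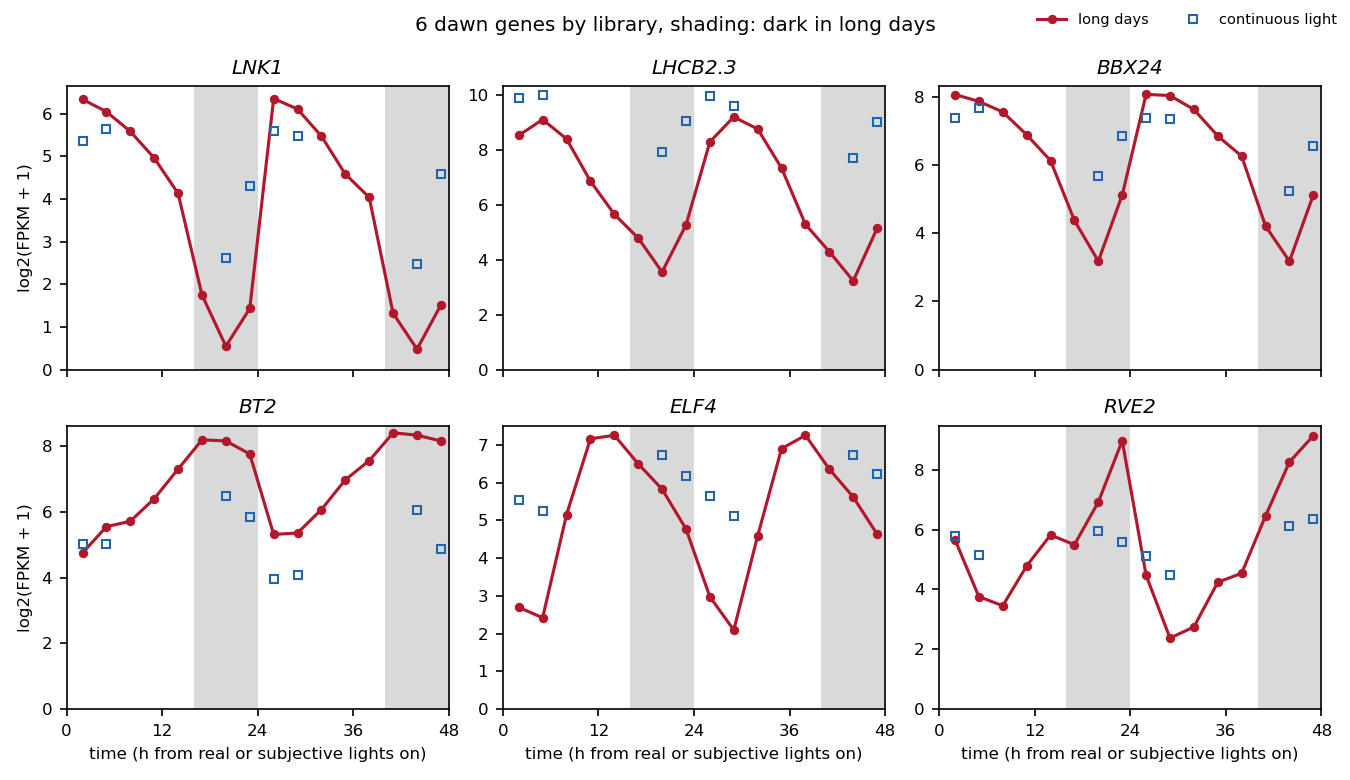
Expression of LNK1, LHCB2.3, BBX24, BT2, ELF4 and RVE2 on the log2(FPKM + 1) scale (vertical axis) against hours (horizontal axis). Red circles are the 16 long-day libraries, open blue squares the 8 continuous-light libraries at the same hours as the morning and late-night ones, and grey marks darkness; LNK1 stood at 65.3 to 81.1 FPKM in the long-day mornings, above its late-night 0.392 to 1.86 FPKM, and BT2 at 25.9 to 45.8 FPKM in the mornings, below its late-night 216 to 321 FPKM.

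Morning clock genes were mostly higher. LNK1, a clock-regulated coactivator that works with RVE8, had 80.0, 65.3, 81.1 and 68.1 FPKM in the mornings (ZT2, ZT5, ZT26 and ZT29), against 0.461, 1.7, 0.392 and 1.86 FPKM in the late nights (ZT20, ZT23, ZT44 and ZT47). The lowest morning library was above the highest night library in both cycles. The difference was 5.35 ± 0.259 (40.9-fold; adjusted p = 9.31e-05). PRR9, the earliest of the pseudo-response regulators, had 17.9, 20.6, 16.1 and 19.9 FPKM in the mornings and 0.129, 0.454, 0.173 and 0.0673 FPKM in the late nights. Each dark library was under 0.5 FPKM, and the mornings lay within a narrow range (4.16 ± 0.132, adjusted p = 9.45e-06). PRR7, which follows PRR9, had 14.2 and 13.6 FPKM at ZT2 and ZT26 and 35.6 and 37.7 FPKM at ZT5 and ZT29, against 0.952 to 2.37 FPKM in the late nights (3.39 ± 0.378, adjusted p = 0.00198). Of 14 morning clock genes tested, 8 were higher, 1 was lower and 5 did not pass, with a list median of 2.32. Over all loci 6.94% were higher and 7.47% lower, with a median of -0.01. RVE6, a close relative of RVE8, was among the 8 at 0.46, but kept its call only when the ZT5 or the ZT29 library was the one left out (adjusted p up to 0.0715, without ZT44). On FPKM as deposited RVE6 did not pass either (adjusted p = 0.0762). LNK2 had 166 to 223 FPKM in the mornings and 6.65 to 51.4 FPKM in the late nights (3.48 ± 0.656, adjusted p = 0.0117), and its call ended when only annotated transcripts were summed (1.84, adjusted p = 0.164).

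The repressors that name the morning loop did not pass. CCA1 had 208, 95.2, 276 and 103 FPKM in the mornings and 7.95, 79.2, 7.06 and 98.1 FPKM in the late nights. Its 2 libraries before dawn, at ZT23 and ZT47, stood near those of ZT5 and ZT29, so the late-night group itself was widely spread (2.63 ± 0.911, adjusted p = 0.0945). LHY, whose reads lie partly in an assembled gene that spans several loci, had 195, 48.9, 212 and 36 FPKM in the mornings and 20.3, 139.8, 26.9 and 135 FPKM in the late nights, and the groups overlapped (0.82 ± 0.845, adjusted p = 0.571). RVE8 and RVE1, MYB-like relatives of CCA1, differed by 0.79 ± 0.532 (adjusted p = 0.374) and 0.01 ± 0.752 (adjusted p = 0.996). RVE2, another MYB-like relative, went the other way. It had 49.7, 12.5, 21.2 and 4.19 FPKM in the mornings and 120.2, 501, 306 and 563 FPKM in the late nights, with no overlap (-4.12 ± 0.734, adjusted p = 0.00971).

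Evening clock genes were mostly lower. ELF3, which joins the evening complex, had 12.5, 13.1, 12.9 and 11.5 FPKM in the mornings, against 49.8, 45.6, 54.6 and 51.7 FPKM in the late nights. Both groups were tight and far apart (-1.80 ± 0.0753, adjusted p = 4.10e-05). ELF4 had 5.47, 4.35, 6.86 and 3.27 FPKM in the mornings and 55.6, 26.3, 48 and 23.8 FPKM in the late nights (-2.53 ± 0.3, adjusted p = 0.00235), and its ZT23 and ZT47 libraries were already below those of ZT20 and ZT44. JMJD5, a jumonji-domain demethylase tied to the clock, had 2.9, 2.47, 4.67 and 1.79 FPKM in the mornings and 38.7, 22.6, 39.4 and 26.8 FPKM in the late nights (-2.93 ± 0.246, adjusted p = 8.37e-04). BOA, a close relative of LUX, had 5.11, 2.68, 4.18 and 1.36 FPKM in the mornings and 20.4, 16.2, 16.8 and 16.4 FPKM in the late nights (-2.04 ± 0.265, adjusted p = 0.00335). The groups of JMJD5 and of BOA were apart by more than either group's own range. Of 14 evening clock genes tested, 10 were lower, 1 was higher and 3 did not pass, with a median of -1.52. Over all loci 7.47% were lower and 6.94% higher. The 1 that was higher was GI, a daytime scaffold protein of clock and flowering, with 7.37, 13.9, 5.99 and 14.7 FPKM in the mornings and 0.209 to 0.454 FPKM in the late nights (3.16 ± 0.279, adjusted p = 9.31e-04). PRR5 was among the 10, at -1.24, but kept its call only when the ZT5 library was the one left out (adjusted p up to 0.0835, without ZT20). With annotated transcripts alone the calls of TOC1 (-0.46, adjusted p = 0.815) and LUX (-0.42, adjusted p = 0.534) ended.

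The windows from 250 bases before to 50 bases after the annotated start are shown for 6 of these genes, because clock and light factors are known to bind the letters marked in them. They were read from the TAIR10.1 RefSeq genome at the deposited gene limits, on the gene's own strand, 5′ to 3′. Capitals mark CACGTG (the G-box, the binding sequence of PIF, HY5 and related factors) and AAAATATCT (the evening element) or its reverse complement. LNK1, LHCB2.3 and PRR9 were higher in the morning, and JMJD5, BOA and COL10 were lower. The 6 windows are examples that all hold a marked motif, and many named genes do not. COL7, PIF4, BT2 and DRM1 hold neither motif. RVE2, which was lower, holds a G-box, and BBX24, which was higher, holds an evening element.
LNK1, chr5:25676774-25677073, minus strand: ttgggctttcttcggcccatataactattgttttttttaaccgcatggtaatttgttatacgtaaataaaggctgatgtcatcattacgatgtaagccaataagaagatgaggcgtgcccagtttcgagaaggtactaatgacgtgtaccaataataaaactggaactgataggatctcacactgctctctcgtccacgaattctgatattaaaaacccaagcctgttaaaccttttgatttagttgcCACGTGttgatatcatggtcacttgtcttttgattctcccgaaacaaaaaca
LHCB2.3, chr3:10255656-10255955, plus strand: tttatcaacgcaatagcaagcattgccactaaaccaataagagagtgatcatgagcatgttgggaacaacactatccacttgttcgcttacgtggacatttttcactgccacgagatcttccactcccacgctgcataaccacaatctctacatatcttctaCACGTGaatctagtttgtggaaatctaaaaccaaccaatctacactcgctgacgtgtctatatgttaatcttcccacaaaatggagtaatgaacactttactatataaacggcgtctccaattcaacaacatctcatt
PRR9, chr2:19232357-19232656, plus strand: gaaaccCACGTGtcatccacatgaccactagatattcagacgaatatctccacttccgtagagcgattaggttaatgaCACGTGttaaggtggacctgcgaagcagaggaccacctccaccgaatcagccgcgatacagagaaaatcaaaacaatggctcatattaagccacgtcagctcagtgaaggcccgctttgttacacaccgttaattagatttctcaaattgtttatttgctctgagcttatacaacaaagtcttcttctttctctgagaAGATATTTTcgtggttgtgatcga
JMJD5, chr3:7275395-7275694, plus strand: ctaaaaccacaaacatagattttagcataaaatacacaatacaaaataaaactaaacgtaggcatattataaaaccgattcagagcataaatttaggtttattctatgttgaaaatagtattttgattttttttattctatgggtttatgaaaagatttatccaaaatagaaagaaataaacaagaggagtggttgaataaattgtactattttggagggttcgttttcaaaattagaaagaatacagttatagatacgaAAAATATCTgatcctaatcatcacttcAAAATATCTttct
BOA, chr5:24003638-24003937, plus strand: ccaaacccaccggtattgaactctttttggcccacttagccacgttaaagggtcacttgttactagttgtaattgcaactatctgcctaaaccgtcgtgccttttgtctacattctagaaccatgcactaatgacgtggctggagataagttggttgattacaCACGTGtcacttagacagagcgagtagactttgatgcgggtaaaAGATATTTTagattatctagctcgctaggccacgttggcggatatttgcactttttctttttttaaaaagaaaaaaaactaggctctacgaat
COL10, chr5:19563783-19564082, minus strand: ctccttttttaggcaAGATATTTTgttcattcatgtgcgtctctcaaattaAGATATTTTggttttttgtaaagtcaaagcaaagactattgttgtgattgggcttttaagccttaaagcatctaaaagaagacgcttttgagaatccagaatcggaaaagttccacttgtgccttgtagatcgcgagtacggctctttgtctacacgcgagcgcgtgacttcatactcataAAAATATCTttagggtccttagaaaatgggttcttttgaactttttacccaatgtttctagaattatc

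In LNK1 the G-box begins 2 bases before the annotated start, in LHCB2.3 88 bases before it, and in PRR9 G-boxes begin 244 and 172 bases before it. PRR9 also holds an evening element 27 bases after the start. JMJD5 holds evening elements at bases 11 and 38 after the start, BOA a G-box 87 and an evening element 43 bases before it, and COL10 evening elements 235, 199 and 18 bases before it. All motifs were searched on both strands in 18691 windows, and the G-box and the evening element do not contain each other. A G-box stood in 16.3% of windows of the 1301 higher loci read, in 7.0% of the 1401 lower ones and in 9.18% of all windows. Among the 83 loci higher by at least 2 on the log2 scale the share was 25.3%. The evening element stood in 2.77% of higher, 5.14% of lower and 2.93% of all windows, and in 18.5% of the 27 loci lower by at least 2. Of the 15 unmerged named loci that were highest in the morning 8 held a G-box and 2 an evening element, and of the 15 lowest 2 held a G-box and 3 an evening element. For the other four motifs searched, the shares of higher, lower and all windows were 10.8%, 7.85% and 8.06% for AAAAATCT (a CCA1-binding site), 16.3%, 16.5% and 15% for GATAAG, 3.54%, 3.64% and 5.68% for AAACCCTA, and 15.8%, 18.9% and 19.1% for TGGGCC. These shares describe letters in fixed windows and say nothing of binding.

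Some B-box and other light-signalling genes were higher. BBX24, a B-box protein that holds back light responses, had 267, 232, 268 and 261 FPKM in the mornings, against 8.06, 33.7, 8.03 and 33.9 FPKM in the late nights. All mornings were above all nights, and ZT23 and ZT47 stood above ZT20 and ZT44 (3.99 ± 0.494, adjusted p = 0.00275). COL7, a CONSTANS-like B-box gene, had 22.4 to 32 FPKM in the mornings and 0.303 to 1.12 FPKM in the late nights (4.3 ± 0.184, adjusted p = 4.10e-05). BBX28 (3.54 ± 0.227), the B-box microprotein gene MIP1A (3.46 ± 0.468) and CDF3, a DOF factor of the family that represses CONSTANS (3.46 ± 0.303), were also higher. BBX20 and COL10, also B-box genes, went the other way. BBX20, which acts with HY5 in greening, had 1.25, 0.699, 2.2 and 0.96 FPKM in the mornings and 18.8, 9.97, 15.3 and 9.75 FPKM in the late nights (-2.53 ± 0.254, adjusted p = 0.00136). COL10 had 2.38 to 2.65 FPKM in the mornings and 10.3 to 20.3 FPKM in the late nights (-1.97 ± 0.218, adjusted p = 0.00196). Of 20 light-signalling genes tested, 7 were higher, 1 (BBX20) was lower and 12 did not pass, with a median of 0.56. Over all loci 6.94% were higher and 7.47% lower. HY5, the central factor of greening, was at -0.22 and did not pass, and COP1, its repressor, was at 0.21 and did not pass. Of the 7 higher calls, that of HFR1 was kept only when ZT26 or ZT47 was the library left out (adjusted p up to 0.104), and that of BBX32 was lost without ZT2, ZT20, ZT26 or ZT44 (adjusted p up to 0.0737). That of SPA4 was lost without any 1 library (adjusted p up to 0.114) and with the cycle as a block (adjusted p = 0.058).

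Among growth-promoting PIF genes, PIF4, PIF5 and PIF7 were higher in the morning. PIF4 had 33.3, 71.3, 28.4 and 74.1 FPKM in the mornings and 4.77, 2.89, 3.19 and 2.47 FPKM in the late nights (3.64 ± 0.345, adjusted p = 0.00109). PIF5 had 62.4 to 76.8 FPKM in the mornings and 16.0 to 25.2 FPKM in the late nights (1.95 ± 0.157, adjusted p = 8.22e-04). Neither gene's groups overlapped, and PIF4 was higher at ZT5 and ZT29 than at ZT2 and ZT26. The 3 were the ones called of 7 PIF genes tested; 4 did not pass. Photoreceptor genes moved little: 2 of 11 were higher, namely the phototropin gene PHOT2 (0.79 ± 0.101) and PHYB (0.33 ± 0.0621), and the list median was 0.03. For both lists, the share of all loci that were higher was 6.94%.

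**Figure D2:**
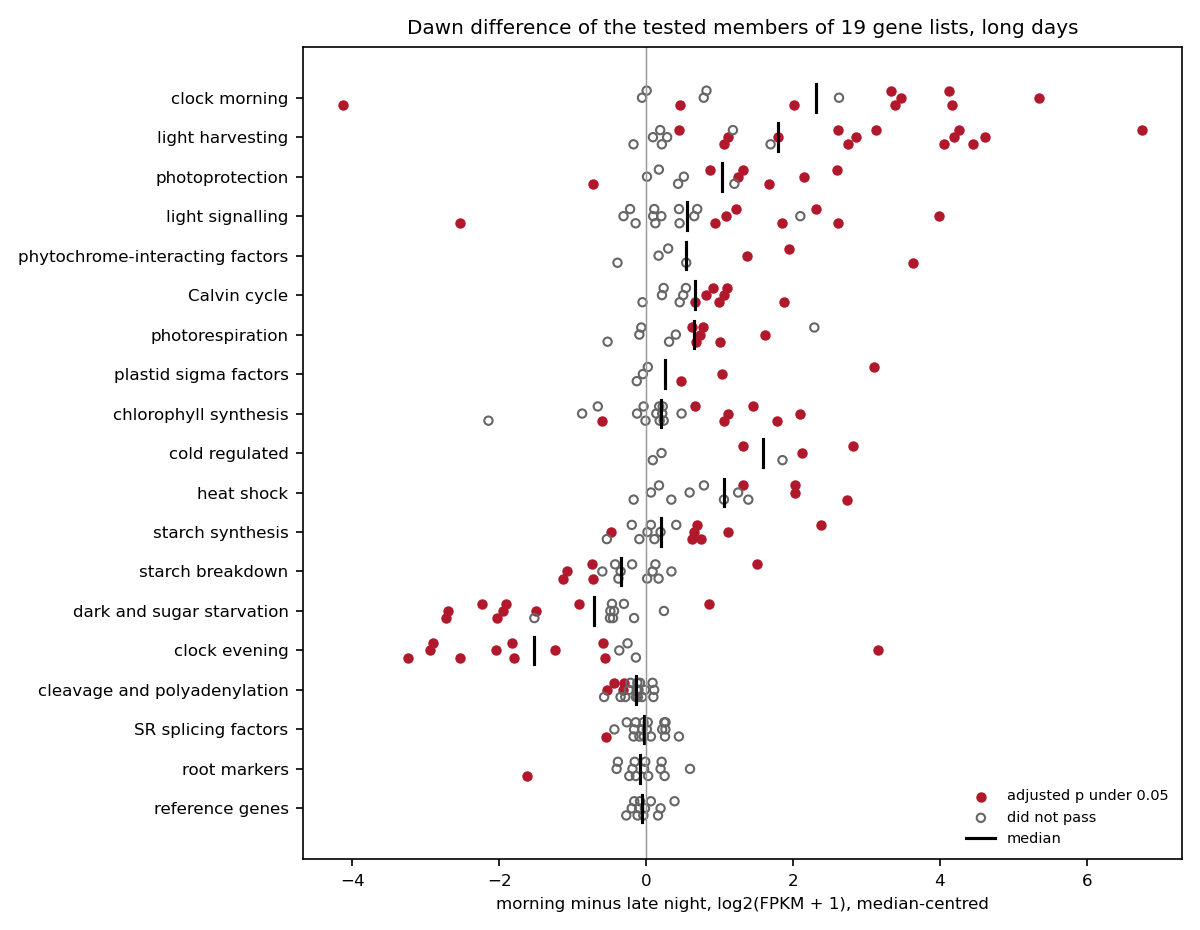
Morning minus late night (log2 scale, horizontal axis) for each tested member of 19 gene lists (rows). Filled red points passed at an adjusted p under 0.05, open grey ones did not, and black lines are list medians, from 2.32 for morning clock genes and 1.79 for light harvesting to -1.52 for evening clock genes.

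Most antenna genes were higher. The 21 light-harvesting loci summed to 14720 to 36240 FPKM in the mornings and 6452 to 9503 FPKM in the late nights. Of the 21 tested, 14 were higher and none lower, with a median of 1.79, beside 6.94% higher and 7.47% lower of all loci. LHCB2.3, of the main antenna of photosystem II, had 371, 554, 315 and 592 FPKM in the mornings and 10.8, 37.6, 8.41 and 34.5 FPKM in the late nights. All mornings were far above all nights, and the later morning library was the higher one in both cycles (4.62 ± 0.505, adjusted p = 0.00187). LHCA4, of photosystem I, had 1945, 3764, 1769 and 4281 FPKM in the mornings and 281, 348, 328 and 413 FPKM in the late nights (3.14 ± 0.322, adjusted p = 0.00145). LHCB6 (2.75 ± 0.298) and LHCB4.2 (2.61 ± 0.309), minor antennae, were also higher. LHCB1.3, the most abundant copy, had 3079 to 6713 FPKM in the mornings and 3340 to 5396 FPKM in the late nights, overlapped and did not pass (0.22, adjusted p = 0.682). LHCB1 copies are near-identical in sequence, and 10 of the 21 loci lie in assembled genes that span several loci, so the split between copies is uncertain. The call of LHCA2 was lost without ZT5 or any late-night library (adjusted p up to 0.0663), that of LHCA5 without ZT5, ZT20, ZT23, ZT26 or ZT29 (adjusted p up to 0.0764), and both after quantile normalization (adjusted p = 0.0531 and 0.0673).

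Photoprotection and pigment genes followed in part. Of 12 photoprotection genes 6 were higher and 1 was lower, beside 6.94% higher and 7.47% lower of all loci. ABA1, the zeaxanthin epoxidase of the xanthophyll cycle, had 179, 169.9, 179 and 173 FPKM in the mornings and 28.7, 65.3, 31.4 and 54.9 FPKM in the late nights (2.15 ± 0.258, adjusted p = 0.00247). NPQ1, the de-epoxidase of that cycle, had 12.4 to 18.6 FPKM in the mornings and 26.1 to 28.1 FPKM in the late nights (-0.72 ± 0.135, adjusted p = 0.0113), although with annotated transcripts alone it did not pass (-0.24, adjusted p = 0.557). The 2 genes of the cycle thus stood in opposite order across dawn. ELIP1, an early light-inducible protein, had 21.5 and 16.9 FPKM at ZT2 and ZT26, 6.78 and 6.18 FPKM at ZT5 and ZT29, and 0.497 to 2.25 FPKM in the late nights (2.61 ± 0.409, adjusted p = 0.00641). Of 20 chlorophyll synthesis genes 6 were higher, 1 was lower and 13 did not pass, with a median of 0.20. The lowest value, -2.14, was among those that did not pass. The 6 were led by CHLH, a subunit of magnesium chelatase (2.09 ± 0.29), GUN4, its activator (1.78 ± 0.208), and CRD1, of the cyclase step (1.45 ± 0.181). With annotated transcripts alone HEMA1, another of the 6, turned to -1.83 and did not pass (adjusted p = 0.533). Among 6 plastid sigma-factor genes 3 were higher, of which SIG2 lost its call without ZT5, ZT20, ZT23, ZT26 or ZT47 (adjusted p up to 0.07). SIG5, the light-induced one, had 79.4, 52.3, 70.9 and 37.4 FPKM in the mornings and 3.3, 11, 3.96 and 11.1 FPKM in the late nights (3.11 ± 0.407, adjusted p = 0.00341), and the groups were far apart. NDA1, an internal NAD(P)H dehydrogenase of mitochondria, had 38.4 to 70.3 FPKM in the mornings and 2.8 to 7.58 FPKM in the late nights (3.37 ± 0.322, adjusted p = 0.00113).

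Some genes of carbon fixation were higher and some of starch breakdown lower, beside 6.94% higher and 7.47% lower of all loci. Calvin cycle genes were higher in 7 of 13 and lower in none (median 0.67), or higher in 5 and lower in 1 after quantile normalization. The call of CP12-2, one of the 7, was lost without each library but ZT5 (adjusted p up to 0.115). Higher were also 6 of 12 photorespiration genes, with none lower (median 0.65), and 6 of 15 starch synthesis genes, with 1 lower (median 0.20). Calls lost without single libraries were those of SHM1 (without ZT20, adjusted p = 0.055) and GGT1 (without ZT5, ZT23, ZT26 or ZT29, up to 0.0674) in photorespiration, and of APL1 (without ZT5, ZT20, ZT23 or ZT44, up to 0.0629) and APL4 (without ZT2, ZT5, ZT23, ZT26 or ZT44, up to 0.072) in starch synthesis. GLDP1, a glycine decarboxylase subunit of photorespiration, had 301, 233, 304 and 246 FPKM in the mornings and 86.0, 101, 96.5 and 99.9 FPKM in the late nights (1.62 ± 0.108, adjusted p = 3.48e-04). That call ended with annotated transcripts alone (0.76, adjusted p = 0.572). Granule-bound starch synthase GBSS1 had 47.1 to 115 FPKM in the mornings and 6.83 to 28.0 FPKM in the late nights (2.39 ± 0.443, adjusted p = 0.0111). Starch breakdown genes were lower in 4 of 15, with PWD, the phosphoglucan water dikinase, at -1.07 ± 0.166 and the glucanotransferase gene DPE1 at -0.73 ± 0.12. The amylase gene BAM1 was the 1 higher member (1.52 ± 0.366, adjusted p = 0.0295), and its call was lost without ZT2, ZT26 or any late-night library (adjusted p up to 0.0771).

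Some sugar-starvation genes were lower. The 18 tested summed to 500 to 866 FPKM in the mornings and 1563 to 2164 FPKM in the late nights. Of these, 8 were lower, 1 was higher and 9 did not pass (median -0.70), beside 7.47% lower and 6.94% higher of all loci. On FPKM as deposited 12 were lower, beside 3539 of all 18778 loci tested. BT2, a BTB-TAZ protein that responds to sugar and nitrogen, had 25.9, 45.8, 38.7 and 39.97 FPKM in the mornings and 284, 216, 321 and 284 FPKM in the late nights. Every morning library was far below every night library (-2.73 ± 0.195, adjusted p = 4.72e-04). DRM1, a dormancy-associated gene, had 61.2, 108, 54.9 and 89.1 FPKM in the mornings and 444, 348, 414 and 371 FPKM in the late nights (-2.23 ± 0.219, adjusted p = 0.00126). BCAT2, of branched-chain amino acid breakdown, had 9.1 to 13.6 FPKM in the mornings and 42.4 to 74.6 FPKM in the late nights (-2.03 ± 0.207, adjusted p = 0.00138). Named lower genes outside the list, not tested as a group, included the proline dehydrogenase gene POX1 (-2.31 ± 0.319), the sugar transporter genes ERD6 (-1.94 ± 0.195) and STP1 (-1.71 ± 0.322), and BT4 (-2.31 ± 0.359), a relative of BT2. DIN9, a phosphomannose isomerase, was the higher member (0.86 ± 0.183, adjusted p = 0.0184), and lost its call without ZT26 (adjusted p = 0.0509). With annotated transcripts alone, 2 of the 8 lower members turned positive without passing, DIN4 at 1.33 (adjusted p = 0.211) and MCCA at 0.74 (adjusted p = 0.309).

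Some stress-related genes were higher too. Heat-shock genes were higher in 4 of 13 and lower in none, beside 6.94% higher and 7.47% lower of all loci. The 16 members of the list, tested or not, summed to 149 to 267 FPKM in the mornings and 91 to 101 FPKM in the late nights. ROF2, a co-chaperone, had 28.1, 17.2, 54.4 and 28.7 FPKM in the mornings and 5.89, 6.79, 9.34 and 7.3 FPKM in the late nights (2.02 ± 0.307, adjusted p = 0.00571). Cold-regulated genes were higher in 3 of 6, and COR15A, a chloroplast protectant whose reads lie in an assembled gene of several loci, had 58.0 to 126 FPKM in the mornings and 8.79 to 14.7 FPKM in the late nights (2.82 ± 0.24, adjusted p = 8.37e-04). Single libraries decided the calls of KIN1 (lost without all but ZT29, adjusted p up to 0.108), COR413-PM1 (without ZT20, ZT26 or ZT44, up to 0.0628) and HSP17.6II (without ZT20, 0.05).

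Genes of RNA processing, the subject of the series, were read beside the 14.4% of all loci that were called. Among 19 SR splicing factors 1 was lower and none higher, among 17 other splicing regulators 1 was higher and 2 were lower, and among 20 cleavage and polyadenylation genes 4 were lower and none higher (median -0.13). GRP7, a clock-controlled RNA-binding protein that regulates splicing, had 133, 108, 115 and 96.3 FPKM in the mornings and 749, 425, 392 and 217 FPKM in the late nights (-1.71 ± 0.322, adjusted p = 0.0114). On FPKM as deposited 9 of the 20 cleavage genes were lower, beside 3539 of all 18778 loci tested. Of the calls after centring, only those of GRP7 and PAPS2, a poly(A) polymerase gene (-0.53, adjusted p = 0.00806), were kept without each single library. With annotated transcripts alone, however, the call of PAPS2 ended (limma, adjusted p = 0.632). That of RS40, the SR gene, was lost without each library but ZT44 (adjusted p up to 0.114), and those of the splicing regulators U2AF65B and PRMT5 without 5 and 3 of the 8 libraries (up to 0.0734 and 0.0657). Those of the cleavage and polyadenylation genes FCA, PAPS4 and FIP1[V] were lost without 6 libraries each (up to 0.0972, 0.0927 and 0.0726). None of 12 reference genes and none of 9 ribosome-biogenesis genes passed in limma, with 1 gene of each list at an unadjusted p under 0.05; of the reference genes 1 was lower on FPKM as deposited and 3 after quantile normalization.

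Successive libraries divide dawn into steps of 3 h, with 2 libraries per hour. Before lights-on, 27 loci (0.144%) differed between ZT23 and ZT20, 24 of them higher (0.128%) and 3 lower (0.0160%). Across lights-on, 1639 (8.73%) differed between ZT2 and ZT23, 969 (5.16%) higher and 670 (3.57%) lower. Within the morning, 120 (0.639%) differed between ZT5 and ZT2, 32 (0.170%) higher and 88 (0.469%) lower. With the cycle as a block the last 2 counts were 2514 and 389. Steps rest on 2 libraries an hour: the count across lights-on was 494, 418, 696 and 408 without ZT2, ZT26, ZT23 and ZT47, and 1045 to 1080 without any of the other four. The count before lights-on was 54, 42, 41 and 43 without ZT20, ZT23, ZT44 and ZT47, and the count within the morning was 7 to 45 without any 1 library, the lone library of an hour then being assumed to vary like the others. The balance of directions in both of these steps turned with single libraries. Before lights-on, 19 were higher and 23 lower without ZT23, and 18 higher and 25 lower without ZT47. Within the morning, 25 were higher and 11 lower without ZT2, and 26 higher and 8 lower without ZT26.

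Morning clock genes were among those that changed before lights-on. Of the 14, 6 were higher at ZT23 than at ZT20, none was lower, and 3 of 9 photoperiod genes and 3 of 21 antenna genes were also higher. The share of all loci that were higher was 0.128%. CCA1 had 79.2 and 98.1 FPKM at ZT23 and ZT47, against 7.95 and 7.06 FPKM at ZT20 and ZT44 (3.41 ± 0.178, adjusted p = 0.00384), still in the dark. CDF1, a repressor of CONSTANS, had 16.6 and 16.4 FPKM, against 3.25 and 3.13 FPKM (2.08 ± 0.0826, adjusted p = 0.00178). TRM27, of the TON1-recruiting family, had 11 and 11.9 FPKM, against 0.591 and 0.571 FPKM, and stayed at 7.25 to 11.1 FPKM in the mornings (3.0 ± 0.125, adjusted p = 0.00178). In each of these the 2 cycles gave nearly the same values. With annotated transcripts alone, CCA1 (adjusted p = 0.873) and TRM27 (adjusted p = 0.109) did not pass. RVE1 was also higher (2.60, adjusted p = 0.0126), but not without ZT5 or ZT29 (adjusted p up to 0.0508) or with annotated transcripts alone (adjusted p = 0.1895). Of the 24 windows of these loci, 41.7% held a G-box.

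The step between the last dark and the first lit library had more calls than the steps before and after it. LNK1 was higher by 4.98 ± 0.0912 (adjusted p = 2.79e-05), PRR9 by 3.95 ± 0.168 (adjusted p = 5.79e-04) and COL7 by 3.93 ± 0.187 (adjusted p = 7.78e-04). LEA2, of the late embryogenesis abundant family, had 58.8 and 77.8 FPKM at ZT2 and ZT26, against 3.54 and 4.33 FPKM at ZT23 and ZT47, and was back at 17.1 and 23.1 FPKM at ZT5 and ZT29 (3.91 ± 0.245, adjusted p = 0.00169). Among 14 morning clock genes 10 were higher and 1 was lower at this step, 10 of 14 evening clock genes were lower and 1 higher, and 11 of 21 antenna genes were higher. The shares of all loci were 5.16% higher and 3.57% lower. BT2 (-2.82 ± 0.23, adjusted p = 0.00336) and DRM1 (-2.51 ± 0.121, adjusted p = 7.78e-04) led the 7 lower starvation genes. RVE2 was lower (-3.88 ± 0.659, adjusted p = 0.0245), but not without ZT2, ZT23, ZT26 or ZT47 (adjusted p up to 0.124).

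Within the morning, a few genes overshot or lagged. CCL, a clock-controlled gene, had 115 and 131 FPKM at ZT5 and ZT29, against 22.2 and 24.6 FPKM at ZT2 and ZT26, so that ZT2 was a trough between the night level of 69.3 to 156 FPKM and the later morning (2.38 ± 0.135, adjusted p = 0.00889). ELIP2, a relative of ELIP1, had 1.5 and 1.71 FPKM, against 9.31 and 10.5 FPKM (-2.03, adjusted p = 0.0194), and BAM3, the main starch amylase of chloroplasts, had 15.2 and 18.7 FPKM, against 93.1 and 103 FPKM (-2.43, adjusted p = 0.0424). Calls of ELIP2 and BAM3 were lost when single libraries were left out, of ELIP2 without any hour but ZT20 or ZT44 (adjusted p up to 0.0954) and of BAM3 without each of the 8 (adjusted p up to 0.192). At this step 3 of 14 morning clock genes, 3 of 13 heat-shock genes and 2 of 10 flavonoid genes were lower at ZT5 than at ZT2. Of all loci 0.469% were lower, and the calls of this step depended on single libraries, as given above.

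**Figure D3:**
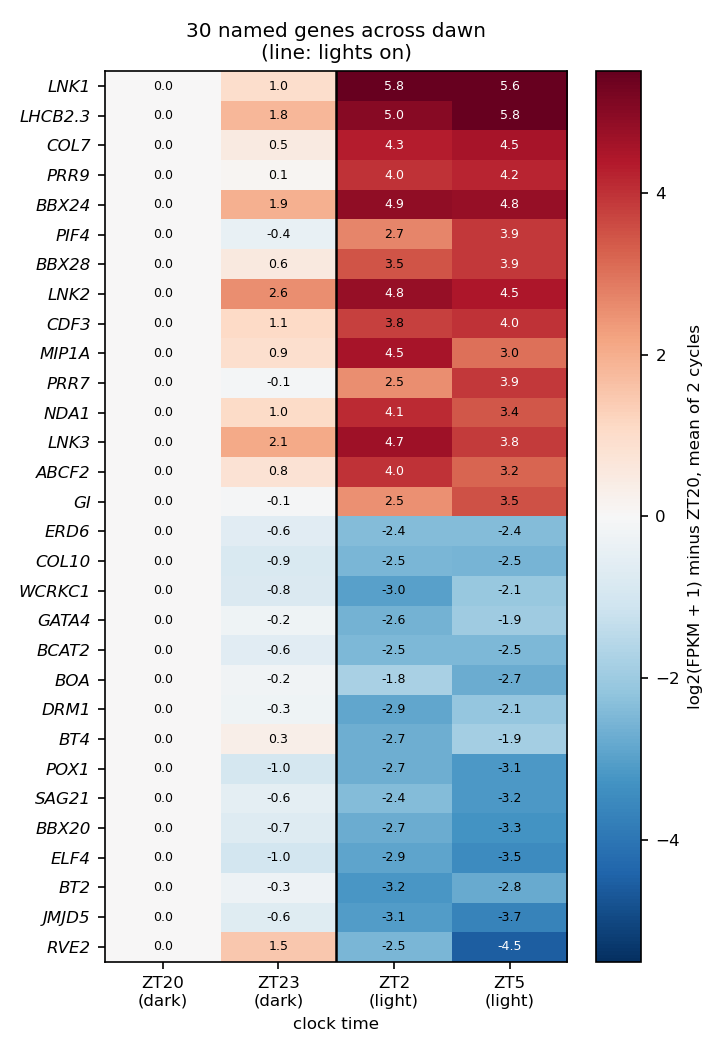
The 15 named higher and 15 named lower genes (rows) at ZT20, ZT23, ZT2 and ZT5 (columns), as log2(FPKM + 1) minus the ZT20 value, each the mean of 2 cycles, with a line at lights-on. LNK2, LNK3 and BBX24 stand above their ZT20 value already at ZT23, whereas PRR9 and COL7 change mainly at ZT2, and the lower genes other than RVE2 and BT4 are at or below their ZT20 value at ZT23.

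In continuous light, where no dark night precedes the subjective morning, the same loci showed little net change. Of the 1303 loci higher in the long-day morning, 1295 had a value in continuous light, and their median was 0.75 in long days and 0.02 in continuous light. There 689 lay above 0 and 606 below it (53.2% above, beside 47.2% of all loci). Of the 1402 lower loci, 1391 had a value, with medians of -0.51 in long days and -0.02 in continuous light, and 630 lay above 0 and 761 below it (45.3% above, beside the same 47.2%). These libraries took no part in choosing the loci. The dawn difference itself differed between the regimes in 1762 of 18771 loci (9.39%) in a fit over 16 libraries, with 967 (5.15%) more positive and 795 (4.24%) more negative in long days. Tables of the 2 regimes were assembled separately, and constant offsets between them cancel in this test. As deposited, 38.7% of the calls were more positive, against 54.9% with centring.

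Clock and antenna lists, among others, kept the sign of their median in continuous light, and several lists did not. Others that kept it included PIF genes (0.55 in long days, 0.34 in continuous light) and photoperiod flowering genes (0.56 and 0.40). Medians were 2.32 in long days and 0.95 in continuous light for morning clock genes, and in the same order -1.52 and -0.66 for evening clock genes, and 1.79 and 1.03 for antenna genes. They were 1.04 and -0.07 for photoprotection, 0.67 and -0.16 for the Calvin cycle, and 1.59 and -0.22 for cold-regulated genes. For the 11 photorespiration genes with both values they were 0.67 and -0.09. For the 17 starvation genes with both values they were -0.91 and 0.22. The test of the difference passed in 14 of 18 starvation genes, 13 of them more negative in long days, in 9 of 21 antenna genes, all more positive, and in 3 of 14 morning clock genes, 2 of them more positive. PRR7 (0.71 ± 0.525, adjusted p = 0.46) and PIF4 (0.88 ± 0.564, adjusted p = 0.384) did not pass it; a miss does not show that they behaved alike.

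Individual genes ran from a similar order in both regimes to the opposite one. LNK1 had 40.03, 49, 47.5 and 43.7 FPKM in the subjective mornings of continuous light and 5.12, 18.8, 4.56 and 23.2 FPKM in its subjective late nights, so the order was kept, at 2.09 in place of 5.35 (difference 3.27 ± 0.6, adjusted p = 0.00472). AT4G04020, given here by its locus code, had 119, 103.5, 138 and 86.8 FPKM in long-day mornings and 17.8, 14.9, 18.5 and 13.7 FPKM in long-day late nights. In continuous light it had 66.0, 65.7, 64.7 and 51.0 FPKM in the subjective mornings and 89.7, 89.0, 83.6 and 87.2 FPKM in the subjective late nights. The order of the groups was opposite and neither pair overlapped (2.83 and -0.44, difference 3.27 ± 0.182, adjusted p = 3.25e-07). NDA1 had 21.1 to 47.6 FPKM in the subjective mornings and 36.1 to 52.2 FPKM in the subjective late nights, which overlapped (3.37 and -0.28, difference 3.65 ± 0.437, adjusted p = 4.13e-04). GATA4, a GATA factor, had 21.6, 34.7, 20.9 and 32.9 FPKM in long-day mornings and 99.2 to 142 FPKM in long-day late nights, against 22.1 to 31.5 FPKM in subjective mornings and 18.8 to 29.1 FPKM in subjective late nights (difference -2.18 ± 0.264, adjusted p = 4.21e-04). In FPKM as deposited, the long-day morning of GATA4 was at the level of continuous light, and its long-day night stood above it. An offset between the separately assembled tables does not cancel in this comparison of levels. STP1 had 19.8 to 38.3 FPKM in the subjective mornings and 15.1 to 21.9 FPKM in the subjective late nights (-1.71 in long days and 0.75 in continuous light, difference -2.45 ± 0.412, adjusted p = 0.00275). All 16 named differences kept their calls when any of the 16 libraries was left out; that of RVE2 ended with annotated transcripts alone (-2.26, adjusted p = 0.079).

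**Figure D4:**
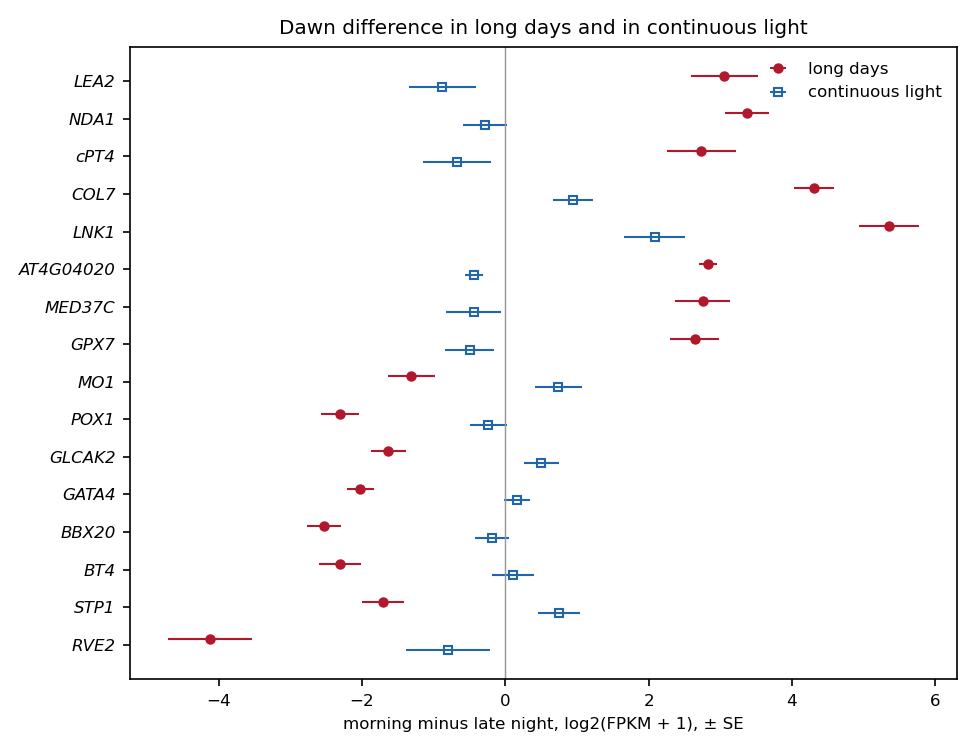
Dawn difference (log2 scale, horizontal axis) of the 16 named genes, with red filled points for long days above open blue squares for continuous light and bars of 1 standard error. Points of LNK1 lie on the same side of 0 (5.35 and 2.09), those of AT4G04020 and STP1 on opposite sides (2.83 and -0.44; -1.71 and 0.75).

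Isoform usage, the share of a locus taken by each of its transcripts, changed at few loci. Of 25039 isoforms tested, 28 (0.112%) passed, 13 higher (0.0519%) and 15 lower (0.0599%), in 18 loci; 1394 had an unadjusted p under 0.05. Of the 18 loci 4 were called for level as well, beside 14.4% of all loci, and 6 of the 28 isoforms lie in assembled genes of several loci. LNK2 isoform AT3G54500.5 made up 0.917, 0.866, 1.46 and 0.408% of the locus in the mornings and 19.7, 47.6, 34.1 and 39.4% in the late nights (usage -5.65 on the log2 scale, adjusted p = 0.00669). In FPKM this isoform stood at 18.4 and 20.2 at ZT23 and ZT47 and at 0.703 to 3.25 in the other six libraries. At the lit hours between, its share was 1.48% at ZT8 and 44.6% at ZT32, and 2.3% at ZT11 and 49.6% at ZT35, so the cycles differed. MTERF1, of the mitochondrial termination factor family, was listed at 0% for isoform AT2G03050.1 in all mornings and at 99.7, 96.3, 100 and 95.8% in the late nights (usage -6.98, adjusted p = 1.60e-04). Its 2 isoforms are single exons on the minus strand that share their 3′ end and begin at base 900946 and at base 900999 of chromosome 2 (TAIR10), and the locus level was 5.54 FPKM in the mornings and 6.09 FPKM in the late nights (adjusted p = 0.957). At ZT17 the same isoform stood at 99.8% and at ZT41 at 0%, so the cycles differed. In AT5G41110 the isoform AT5G41110.2 took 0.00738 to 2.31% in the mornings and 86.9 to 89.2% in the late nights (usage -5.72, adjusted p = 7.77e-04), but 0.02% at ZT17 and 86.9% at ZT41. LBD37, a LOB-domain factor of nitrogen responses, had an assembled isoform at 0 to 1.42% in the mornings and 52.6 to 80.2% in the late nights (usage -7.16, adjusted p = 0.00265), with 0% at ZT17 and 78.3% at ZT41. PIF4 isoform AT2G43010.1 took 0.13 to 2.42% in the mornings and 9.49 to 71.7% in the late nights (usage -5.92, adjusted p = 0.0495), a call lost with the cycle as a block (adjusted p = 0.101), with a pseudocount of 0.1 (adjusted p = 0.114), and without each library but ZT26 and ZT47 (adjusted p up to 0.164). These shares rest on the FPKM that the authors deposited for each isoform, and the reads were not analysed here.

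**Figure D5:**
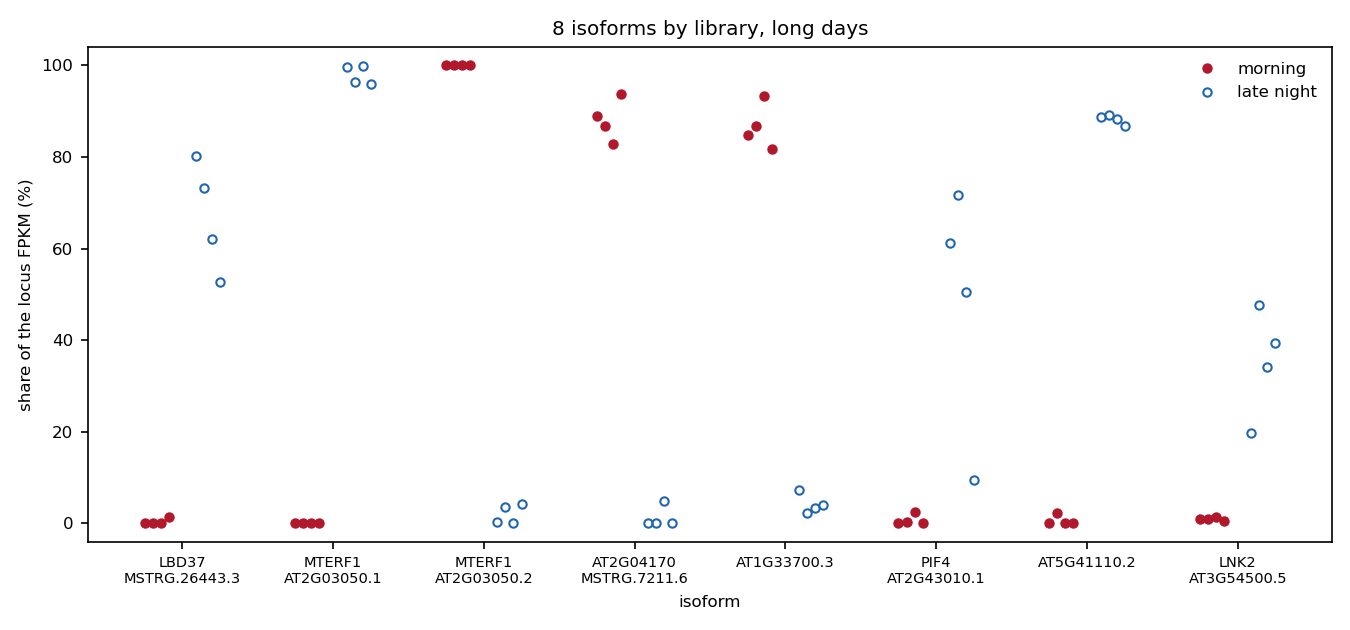
Share of the locus FPKM (percent, vertical axis) of the 8 named isoforms (horizontal axis), with red filled points for the 4 mornings and open blue points for the 4 late nights. In AT5G41110.2 the mornings lie at 0.00738 to 2.31% and the late nights at 86.9 to 89.2%; in PIF4 AT2G43010.1 the late nights spread from 9.49 to 71.7%.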

How the data were processed

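RNA sequencing of total RNA measured transcripts in 32 libraries, 1 per time point every 3 h from 2 to 47 h in long days and in continuous light. The authors deposited 1 table of FPKM per transcript for each regime, per the file headers; per the submitters' processing notes the genome build was TAIR10, and no aligner or quantifier is named (not given in the sources used here). FPKM were summed per locus over annotated transcripts and transcripts assembled at that locus alone, moved to log2(FPKM + 1) and centred on the library median; loci with a mean of at least 1 FPKM were tested. Transcript lengths (nt) and exon numbers were used as deposited.

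Morning and late night (4 libraries each) were compared with limma 3.58.1 in R 4.3.3 (lmFit, eBayes with trend), with Benjamini-Hochberg adjustment over all loci and a threshold of 0.05. Steps used the hour of the day as a factor over the same 8 libraries, and the difference between regimes an interaction over 16 libraries. Isoform usage was log2((isoform + 0.5)/(rest of the locus + 0.5)) where an isoform's mean share was 5 to 95%. The fits were run on simulated data, in which libraries were drawn independently and without hour differences within a group. Such data cannot show the error rates for libraries that deviate together. Libraries of the same cycle deviated together (r = 0.232 to 0.342 over 6 pairs of hours), so the cycle was tried as a block. Named were the 15 loci per direction of largest difference (6 for a step, 8 for the difference between regimes) with a symbol, no overlap of groups and outside assembled genes that span several loci, 8 isoforms, and up to 4 called members per list. Members, lists and rules were chosen with earlier results of these data known, and 377 of 410 list members in 29 lists could be tested. Symbols came from the gene lists, the deposited gene names or the TAIR10.1 RefSeq annotation. Windows were cut from the RefSeq genome at the deposited limits, which 99.95% of the loci matched to that annotation have there too.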

Additional observations from a re-analysis of the deposited data

Results flagged for a closer look

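In 250 groups of 4 libraries of the named genes, 7 held a library far from the other three, where chance alone gives about 1 in 20. In the mornings, BBX24 had 232 FPKM at ZT5 against 261 to 268 FPKM in the others, SIG1 had 111 FPKM at ZT2 against 93.6 to 95.9 FPKM, and POX1 had 22.4 FPKM at ZT26 against 11.1 to 12 FPKM. In the late nights, STP1 had 70.8 FPKM at ZT23 against 146 to 154 FPKM, TEM1 19.9 FPKM at ZT23 against 32.3 to 35.1 FPKM, BOA 20.4 FPKM at ZT20 against 16.2 to 16.8 FPKM, and DPE1 17.1 FPKM at ZT47 against 21.8 to 22.8 FPKM.

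The dawn change differed between long days and continuous light in 1762 loci by the test of the difference itself (limma, adjusted p under 0.05). The 16 named among them have these differences on the log2 scale, long days minus continuous light. The more positive ones were LEA2 (3.93), NDA1 (3.65), the prenyltransferase gene cPT4 (3.42), COL7 (3.35), LNK1 (3.27), AT4G04020 (3.27), the HSP70-family gene MED37C (3.19) and the glutathione peroxidase gene GPX7 (3.14). The more negative ones were RVE2 (-3.32), STP1 (-2.45), BT4 (-2.42), BBX20 (-2.34), GATA4 (-2.18), the glucuronokinase gene GLCAK2 (-2.13), POX1 (-2.08) and the monooxygenase gene MO1 (-2.05).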

How the results depend on the processing

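Against 2705 loci called between morning and late night, FPKM as deposited gave 4528 (989 higher, 3539 lower), no filter on low values 4917 (3331 higher, 1586 lower), annotated transcripts alone 1786 and leaving out single libraries 1717 to 2518. For the step before lights-on (27), single libraries left out gave 19 to 54. For the step across lights-on (1639), annotated transcripts gave 786, the cycle as a replicate block 2514 and single libraries left out 408 to 1080; 59.1% of calls were higher, 38.8% as deposited. For the step within the morning (120), quantile normalization and a pseudocount of 0.1 gave 74 each, no filter 64, annotated transcripts 37, leaving out loci of merged genes 236, the block 389 and single libraries left out 7 to 45. For the difference between regimes (1762), annotated transcripts gave 1052 and single libraries left out 1183 to 2003. For isoforms (28), annotated isoforms gave 12, and single libraries left out gave 20 to 44, the highest without ZT26. The cause of these moves was not tested. With the block, the dawn comparison gave 3167 calls, the step before lights-on 35, the difference 2334 and isoform usage 20, and 200 of 205 named results kept their calls; the exceptions were CDF5, MO1, SAUR20, SPA4 and the PIF4 isoform. Without single libraries CDF5, MO1 and SAUR20 also lost their dawn calls (largest adjusted p 0.105, 0.103 and 0.12, in 6, 6 and 7 of 8 cases). Direction turned, without passing, in MCCA (0.74), HEMA1 (-1.83) and DIN4 (1.33), all with annotated transcripts alone, where a further 38 of 188 named results lost their calls. Read numbers are unknown, so the precision comes from the spread between libraries alone.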

Other observations

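Some loci moved between near 0 and a steady level in single hours, and no direction is drawn from them. CYP19-1, a cyclophilin gene, had 141 to 178 FPKM in the mornings, 206 and 207 FPKM at ZT20 and ZT44, and 0.546 and 0.337 FPKM at ZT23 and ZT47; in continuous light it had 222 to 329 FPKM in 6 libraries and 0.6 and 0.65 FPKM at 29 and 47 h. ATL46, a RING-finger gene, had 0.595 and 0.814 FPKM at ZT2 and ZT26, 18.1 and 18.0 FPKM at ZT5 and ZT29, and 27.1 to 29.9 FPKM in the late nights. CIPK20, a kinase gene, was low over several hours and so not of this kind. It had 0 to 0.0919 FPKM in the late nights, 0.449 and 0.561 FPKM at ZT2 and ZT26, and 9.57 and 15.8 FPKM at ZT5 and ZT29. Its highest hour was ZT8, at a mean of 17.5 FPKM. Its call between ZT5 and ZT2 was lost without ZT2, ZT23, ZT26 or ZT47 (limma, adjusted p up to 0.08).

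Other named genes, from no list, were SAMDC2, WCRKC1 and SAG21. SAMDC2, an S-adenosylmethionine decarboxylase gene of polyamine synthesis, had 181, 50.2, 173 and 36.4 FPKM in the mornings and 14.1, 29.6, 12.6 and 20.5 FPKM in the late nights (2.34 ± 0.555, adjusted p = 0.028), a call lost without ZT2, ZT20, ZT26, ZT44 or ZT47 (adjusted p up to 0.0764). WCRKC1, a thioredoxin gene, had 1.07, 2.14, 1.14 and 4.04 FPKM in the mornings and 12.9, 6.24, 19.4 and 11.9 FPKM in the late nights (-2.01 ± 0.385, adjusted p = 0.0124). SAG21, a mitochondrial late embryogenesis abundant gene, had 47.6 to 114 FPKM in the mornings and 277 to 1242 FPKM in the late nights (-2.36 ± 0.471, adjusted p = 0.0145). In SAG21 the ZT20 library stood well above the other late nights.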
